A study of Mus musculus with 8 samples.

Results

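The mouse genes whose symbol starts with Kcn encode potassium channels and their auxiliary subunits. Selecting every row of the deposited expression table by that start of the symbol gave 94 genes of 22173. Hearts came from C57BL/6J mice in which the left anterior descending coronary artery had been tied off, an operation that infarcts the left ventricular wall. DAPA, the usual short form of dapagliflozin, an inhibitor of the renal glucose cotransporter SGLT2, was dosed at 1 mg/kg daily in 1 group over the 4 weeks that followed the operation, and the other group received vehicle, with 4 libraries in each. Every animal, vehicle included, carried the ligation, so no unoperated heart stands beside these values. The labels give the tissue as heart and name no region or chamber. Age and sex are not given, and the labels do not say whether each library is 1 animal, so that p-values measure the spread between these libraries, which may be partly technical.

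Potassium channels let potassium leave the cardiac muscle cell, which ends each action potential and holds the cell at its resting potential between beats. Voltage-gated channels (Kv) open on depolarisation and are tuned by auxiliary subunits, inward rectifiers (Kir) set the resting potential or couple it to acetylcholine and to cell energy, calcium-activated channels answer to intracellular calcium, and two-pore channels carry background current. Atrial and ventricular muscle use different mixtures of these channels, with the acetylcholine-gated Kir channel most abundant in the atria.

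Expression was given as FPKM, the number of fragments divided by transcript length in kilobases and by a read total of the library. In this bulk tissue RNA, fewer cells of a type and less RNA per cell cannot be told apart. The library totals, inferred from the FPKM values, were 24990393 to 26823456 reads (or read pairs). The sum of FPKM over all 94 genes was 301 to 317 per vehicle library and 305 to 313 per DAPA library, so the ranges overlapped. The 6 most abundant, Kcnk3, Kcng2, Kcnj8, Kcnip2, Kcnj11 and Kcna5, made up 66.1% to 71.4% of that sum. A mean of 10 FPKM or more in at least 1 group was reached by 9 genes, and 1 to under 10 FPKM by 15. Those 24 were tested, which is 25.5% of the family against 51.8% of the whole table. Of the other 70, 27 had a mean of 0.1 to under 1 FPKM, 37 were lower but above 0 in some library, with at most 99 reads in any, and 6 were listed at 0 in all 8 libraries.

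**Figure D1:**
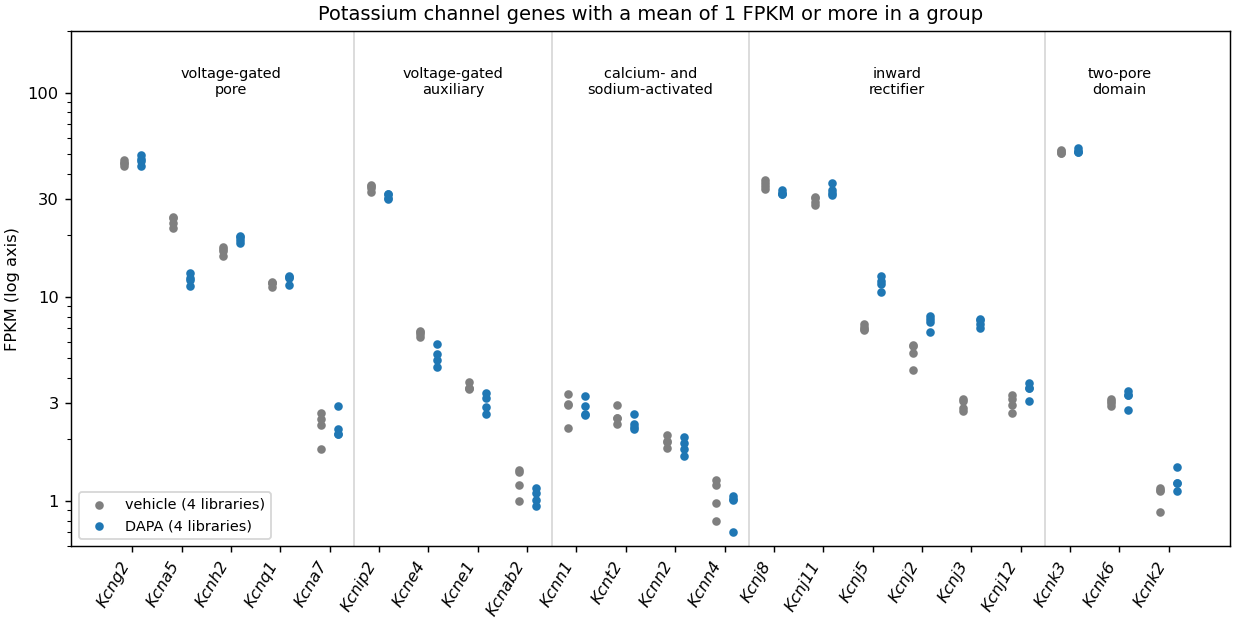
Each point is 1 library and each gene has 4 vehicle (grey) and 4 DAPA (blue) points on a logarithmic FPKM axis, with 22 of the 24 tested potassium channel genes ordered by class and, within it, by level. Kcnk3 and Kcng2 lead in both groups, while Kcna5, Kcnj5, Kcnj2 and Kcnj3 show the widest separation between groups.

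With DAPA, both subunits of the acetylcholine-gated channel (Kcnj3 and Kcnj5) and the main subunit of the rectifier that sets the resting potential (Kcnj2) were higher, and the voltage-gated subunit Kcna5 was lower. Of the 24 tested genes, 5 rose (20.8%) and 4 fell (16.7%) at an adjusted p below 0.05 in limma, where 9.62% of all 11496 tested genes rose and 8.75% fell. The 5 risers were Kcnj3, Kcnj5, Kcnj2, Kcnh2 and Kcnj11, and the 4 that fell were Kcna5, Kcne4, Kcnip2 and Kcnj8. In each of these 9 the vehicle and DAPA libraries did not overlap, which largely follows from passing the test and adds no support to it. The share without overlap among all tested genes was not counted. The median log2 difference of the 24 was 0.001 against 0.0085 over all tested genes, and the median size of the difference, ignoring its sign, was 0.127 against 0.079. Leaving out vehicle library 1 or DAPA library 3 reduced the genes that fell to 2, because Kcnip2 and Kcnj8 lost their calls. By class, 4 of 6 tested inward rectifiers rose and 1 fell. Among 7 tested voltage-gated pore subunits 1 rose and 1 fell, and 2 of 4 tested voltage-gated auxiliary subunits fell. None of 4 calcium- or sodium-activated and none of 3 two-pore genes passed the test.

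**Figure D2:**
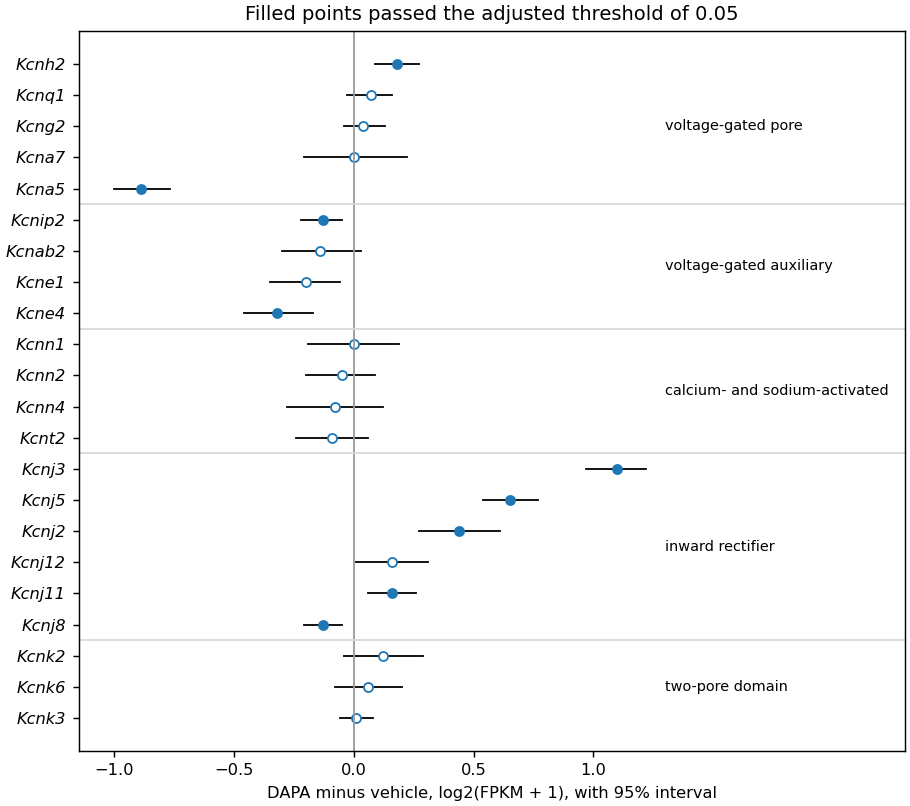
The difference between DAPA and vehicle in log2(FPKM + 1), with its 95% interval from limma, is drawn for 22 of the 24 tested genes by class; filled points passed the adjusted threshold of 0.05. The largest differences are those of Kcnj3 at 1.10 and Kcna5 at -0.89, and most open points have intervals that include 0.

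The 4 genes with the largest differences that passed are shown with the sequence around their transcript start, because they are the genes on which the comparison turns. Each window is taken from RefSeq on the mouse assembly GRCm38.p6 and runs from 250 bases before the start to 50 bases from it, 5′ to 3′ on the strand of the gene. They lie at chr2:55435720-55436019 on the plus strand for Kcnj3, chr6:126535506-126535805 on the minus strand for Kcna5, chr9:32344295-32344594 on the minus strand for Kcnj5 and chr11:111065914-111066213 on the plus strand for Kcnj2. Capitals mark a match to a searched motif.
Kcnj3 promoter: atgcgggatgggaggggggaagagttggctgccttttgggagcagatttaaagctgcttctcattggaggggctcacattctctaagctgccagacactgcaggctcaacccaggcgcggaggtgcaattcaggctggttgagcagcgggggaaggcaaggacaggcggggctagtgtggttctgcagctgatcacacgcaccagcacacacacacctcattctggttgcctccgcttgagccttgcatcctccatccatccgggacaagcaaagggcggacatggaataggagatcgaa
Kcna5 promoter: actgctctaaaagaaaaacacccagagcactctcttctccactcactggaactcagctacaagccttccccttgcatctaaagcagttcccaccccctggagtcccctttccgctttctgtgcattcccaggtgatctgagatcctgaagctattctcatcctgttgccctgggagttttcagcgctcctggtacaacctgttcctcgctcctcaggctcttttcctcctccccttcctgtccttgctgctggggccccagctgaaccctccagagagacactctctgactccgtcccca
Kcnj5 promoter: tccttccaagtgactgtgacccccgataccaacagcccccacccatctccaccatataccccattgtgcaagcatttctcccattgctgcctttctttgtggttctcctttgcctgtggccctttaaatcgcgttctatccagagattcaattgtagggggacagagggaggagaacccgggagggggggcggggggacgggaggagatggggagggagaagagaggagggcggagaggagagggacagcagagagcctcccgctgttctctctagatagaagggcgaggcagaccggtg
Kcnj2 promoter: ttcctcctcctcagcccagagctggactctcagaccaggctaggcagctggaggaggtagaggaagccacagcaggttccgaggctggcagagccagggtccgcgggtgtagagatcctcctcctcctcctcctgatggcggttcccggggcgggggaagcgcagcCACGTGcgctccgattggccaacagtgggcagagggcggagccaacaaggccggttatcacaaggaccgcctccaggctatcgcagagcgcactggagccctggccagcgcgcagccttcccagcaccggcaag
The 4 motifs searched, on both strands, were the E-box CACGTG, the D-box TTATGNAA, the GATA motif AGATAA and the T-box motif AGGTGTGA. The window of Kcnj2 held CACGTG once, with its first base 84 bases before the start. None of the 4 motifs was found in the windows of Kcnj3, Kcna5 and Kcnj5. Over all 32851 RefSeq windows of this length, CACGTG was present in 7.15%, TTATGNAA in 3.38%, AGATAA in 11.2% and AGGTGTGA in 1.28%. The 94 windows of the 69 Kcn genes that had one held them in 7.45%, 0%, 4.26% and 1.06%. The share of G and C bases was 57.7% for Kcnj3, 55% for Kcna5, 58.3% for Kcnj5 and 66.7% for Kcnj2, against a median of 52.7% over all windows.

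Among genes at 1 FPKM or more, subunits of the acetylcholine-gated channel had the largest rises of the family. Kcnj3 (NCBI Gene 16519) encodes GIRK1, and Kcnj5 (16521) encodes GIRK4, the subunits that pair to form the channel that the vagus nerve opens through the muscarinic receptor and G protein beta-gamma subunits. Kcnj3 stood at 3.17, 2.84, 2.74 and 3.07 FPKM in vehicle libraries 1 to 4 and at 7.68, 7.03, 7.37 and 7.75 FPKM in DAPA libraries 1 to 4. The lowest DAPA library was far above the highest vehicle library. Kcnj3 thus rose from 2.95 ± 0.2 to 7.46 ± 0.328 FPKM (mean ± SD, n = 4), 2.52-fold, with a difference of 1.10 in log2(FPKM + 1) (SE 0.0571, limma adjusted p = 3.2e-08). Kcnj5 measured 7.12, 6.94, 7.33 and 6.88 FPKM with vehicle and 12, 11.6, 10.6 and 12.6 FPKM with DAPA. Again every DAPA library was above every vehicle library. Kcnj5 rose from 7.07 ± 0.201 to 11.7 ± 0.811 FPKM (n = 4), 1.66-fold (log2 difference 0.65, SE 0.0532, limma adjusted p = 1.9e-06). The ratio of Kcnj3 to Kcnj5 FPKM was 0.373 to 0.447 in the vehicle libraries and 0.604 to 0.692 in the DAPA libraries, so the pair changed unequally. In the list of regulators 7 genes belong to the G protein step around this channel, and 2 of them passed. Chrm2, the muscarinic M2 receptor, rose from 12.3 ± 0.688 to 15.4 ± 0.503 FPKM (n = 4, limma adjusted p = 0.0006), and Rgs6, which speeds G protein turnoff at this channel, rose from 2.13 ± 0.273 to 3.30 ± 0.265 FPKM (n = 4, limma adjusted p = 0.00078). The limma adjusted p was 0.87 for Gnai2, 0.76 for Gnb1, 0.14 for Gnb5 and 0.35 for Rgs4. Adora1, the adenosine receptor that opens the same channel, measured 2.54 ± 0.198 with vehicle and 2.07 ± 0.26 FPKM with DAPA (n = 4, limma adjusted p = 0.07).

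The same DAPA libraries held far more RNA of atrial muscle. Beside the marker counts below, 9.62% of all 11496 tested genes rose and 8.75% fell. Of 15 atrial markers 14 were tested, 12 rose and none fell, with a median log2 difference of 1.97. Of these 12, 7 lay under 1 FPKM with vehicle and so were tested through their DAPA libraries alone. The summed FPKM of all 15 was 8120 to 9064 in vehicle and 12981 to 13690 in DAPA libraries. Most of these sums was Nppa, at 8481 ± 447 and 12070 ± 305 FPKM (1.42-fold), so they mainly follow that gene. Sln, a defining atrial marker, lay between 0 and 0.886 FPKM in the vehicle libraries and between 284 and 325 FPKM in the DAPA libraries. Of 11 conduction system markers 7 were tested and 6 rose, 2 of them tested through DAPA libraries alone, with sums of 16.9 to 20.6 and 26.3 to 28.9 FPKM. Among 16 ventricular markers 2 rose and 5 fell, with sums of 42265 to 42768 and 38422 to 40998 FPKM. No marker of these 3 lists was at 0 in all libraries. Epicardial markers were higher as well, with 6 of 10 rising, 2 of them tested through DAPA libraries alone, and sums of 24.5 to 40.3 against 46.1 to 61 FPKM, as were 9 of 13 endothelial markers, of which 3 fell (sums of 821 to 859 and 961 to 999 FPKM). Of 12 adipocyte markers 10 were tested and 8 fell, 1 of them tested through its vehicle libraries alone. The adipocyte sums were 2848 to 3112 and 2393 to 2487 FPKM, mostly Fabp4 (means of 1361 and 1102) and Lpl (1217 and 1237). Cfd fell from 211 to 37.3 FPKM and Adipoq from 12.7 to 3.46, while Cidea measured 33.5 and 33.8. Of 12 fibroblast markers 2 rose and 4 fell (3474 to 3568 and 3512 to 3781 FPKM). Of 4 tested skeletal muscle markers 1 rose (1002 to 1130 and 961 to 1020 FPKM). Acta1 made up nearly all of the skeletal muscle sums, with means of 1038 and 979 FPKM. Every other marker of that list had a higher mean with DAPA, some far under 1 FPKM. The part of RNA from these cell types in the differences of Kcnj3, Kcnj5, Kcna5 and the other potassium channel genes was not tested.

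The strong inward rectifiers carry the current that clamps the resting potential of ventricular muscle. Kcnj2 (16518), which encodes Kir2.1, the main subunit, was measured at 5.75, 4.35, 5.27 and 5.82 FPKM in vehicle libraries and 7.55, 8.07, 6.72 and 7.75 FPKM in DAPA libraries. Vehicle library 2 was the lowest, and the groups did not overlap with or without it. Kcnj2 rose from 5.29 ± 0.679 to 7.52 ± 0.575 FPKM (n = 4), 1.42-fold (log2 difference 0.44, SE 0.0794, limma adjusted p = 0.0017). Kcnj12, its partner Kir2.2, read 3.14, 2.96, 2.69 and 3.3 FPKM with vehicle and 3.77, 3.07, 3.57 and 3.58 FPKM with DAPA. DAPA library 2 fell inside the vehicle range, and the log2 difference of 0.16 (95% interval 0.01 to 0.31) did not pass (limma adjusted p = 0.13). It did pass in limma voom on the reads recovered from the FPKM values (adjusted p = 0.039). Kcnj4, encoding Kir2.3 and named after its values were seen, had only 27 vehicle and 61 DAPA reads.

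The ATP-sensitive channel couples membrane potential to cell energy and is built from a Kir6 pore and a sulfonylurea receptor. Its muscle pore Kcnj11 (16514, Kir6.2) measured 30.8, 29.1, 30.3 and 28.3 FPKM with vehicle and 32.1, 33.3, 35.9 and 31.6 FPKM with DAPA. The vascular pore Kcnj8 (16523, Kir6.1) measured 37.2, 35.9, 33.9 and 34.9 FPKM with vehicle and 33.4, 31.8, 32.1 and 31.9 FPKM with DAPA. Neither gene had overlapping groups, although the gaps were narrow. Kcnj11 rose from 29.6 ± 1.14 to 33.2 ± 1.89 FPKM, 1.12-fold (log2 difference 0.16, SE 0.0448, limma adjusted p = 0.026), and Kcnj8 fell from 35.5 ± 1.41 to 32.3 ± 0.737 FPKM, 1.1-fold lower (log2 difference -0.13, SE 0.0372, limma adjusted p = 0.027; n = 4 for both). Kcnj8 was thus 1.12 to 1.23 times Kcnj11 in vehicle libraries and 0.894 to 1.04 times in DAPA libraries. Both calls were fragile. That of Kcnj11 was lost without vehicle library 2 or 4 or DAPA library 2 or 3 (limma adjusted p up to 0.076). That of Kcnj8 was lost without vehicle library 1 or 2 or DAPA library 2, 3 or 4 (up to 0.073). The receptor Abcc8 (SUR1), which is abundant in mouse atrium, rose from 6.00 ± 0.208 to 7.12 ± 0.63 FPKM (limma adjusted p = 0.027, n = 4, up to 0.075 with a library left out). Abcc9 (SUR2), which pairs with both pores, measured 25.9 ± 2.04 and 25.0 ± 0.846 FPKM (limma adjusted p = 0.62, n = 4). Markers of smooth muscle and pericytes, where Kcnj8 is abundant, had sums of 1603 to 1667 FPKM in vehicle and 1518 to 1549 in DAPA libraries, with 3 of 14 higher, 2 lower and none at 0 in all libraries. Without Des, which cardiac muscle also expresses, the sums were 564 to 622 and 605 to 617 FPKM and overlapped. Their part in the difference of Kcnj8 was not tested.

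**Figure D3:**
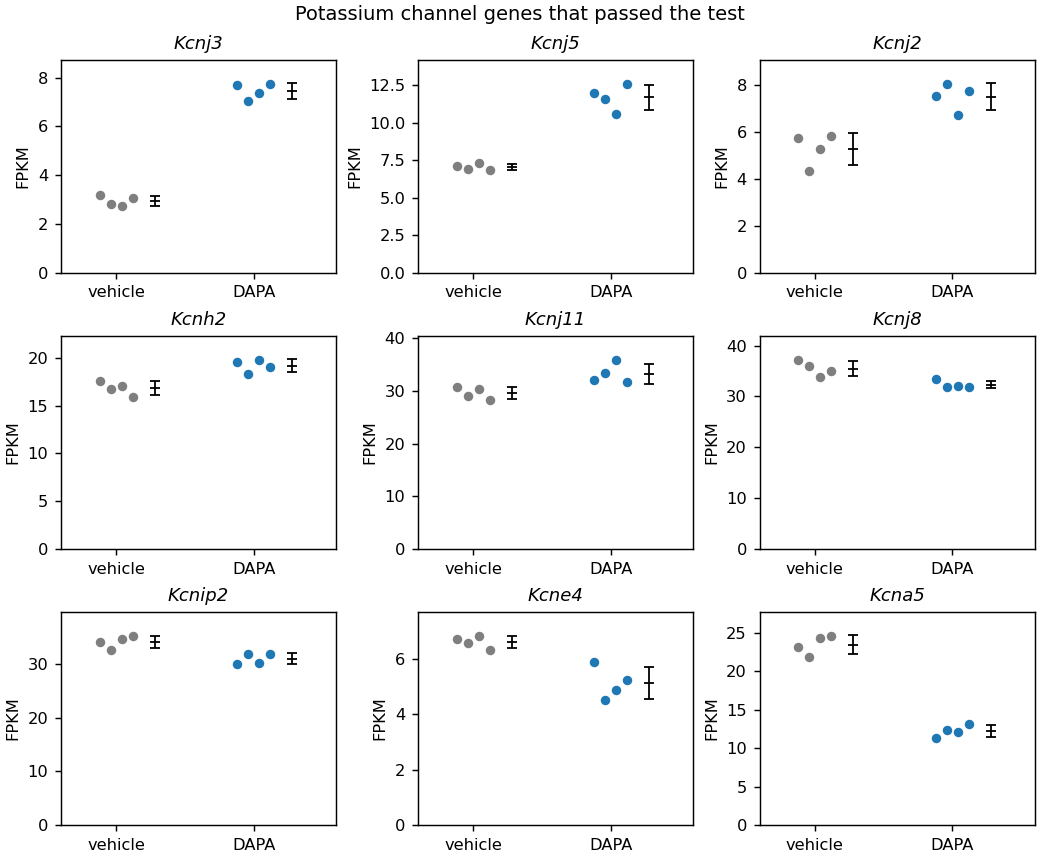
Each panel shows 1 of the 9 potassium channel genes that passed the test, with FPKM from 0 on the vertical axis, 1 point per library and, beside each group of 4, the mean with its SD. In every panel the vehicle and DAPA points do not overlap, with the widest gaps for Kcnj3 and Kcna5 and narrow ones for Kcnip2, Kcnj8 and Kcnj11.

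Among the 7 voltage-gated pore subunits tested on FPKM, the largest difference was a fall of Kcna5. Kcna5 (16493) encodes Kv1.5, which carries an ultrarapid delayed rectifier current and in the mouse is used by atrial and ventricular muscle. Its values were 23.1, 21.8, 24.3 and 24.6 FPKM with vehicle and 11.3, 12.4, 12.1 and 13.1 FPKM with DAPA. The highest DAPA library was well below the lowest vehicle library. Kcna5 fell from 23.4 ± 1.3 to 12.2 ± 0.761 FPKM (n = 4), 1.92-fold lower (log2 difference -0.89, SE 0.0524, limma adjusted p = 9.8e-08). It supplied most of the Kv1 RNA, whose sum over 8 genes was 24.9 to 27.5 FPKM in vehicle and 14.9 to 17.3 in DAPA libraries. Kcna7, the other tested Kv1 gene, measured 2.34 ± 0.393 and 2.35 ± 0.375 FPKM (log2 difference 0.00, 95% interval -0.21 to 0.22, limma adjusted p = 0.98).

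The rapid and slow delayed rectifiers end the action potential in large mammals and are smaller currents in the adult mouse. Kcnh2 (16511), encoding the ERG pore of the rapid current, stood at 17.6, 16.7, 17.1 and 15.9 FPKM with vehicle and at 19.6, 18.3, 19.8 and 19 FPKM with DAPA. All DAPA libraries were above all vehicle libraries by a small margin. Kcnh2 rose from 16.8 ± 0.731 to 19.2 ± 0.677 FPKM (n = 4), 1.14-fold (log2 difference 0.18, SE 0.0433, limma adjusted p = 0.012). Kcnq1, the pore of the slow current, was at 11.8, 11.7, 11.2 and 11.7 FPKM with vehicle and 12.3, 12.6, 12.5 and 11.4 FPKM with DAPA. DAPA library 4 lay within the vehicle range, and the log2 difference was 0.07 (95% interval -0.03 to 0.16, limma adjusted p = 0.35). Kcne1, the subunit that slows Kcnq1 channels, measured 3.83, 3.58, 3.58 and 3.52 FPKM with vehicle and 2.67, 2.88, 3.19 and 3.39 FPKM with DAPA. The groups did not overlap, yet the log2 difference of -0.20 (95% interval -0.35 to -0.06) missed the threshold (limma adjusted p = 0.052) and passed in 4 of 18 alternatives, with adjusted p from 0.031 to 0.14. Kcne4 (57814), a subunit that inhibits several Kv channels, was at 6.71, 6.57, 6.83 and 6.33 FPKM with vehicle and at 5.89, 4.52, 4.89 and 5.24 FPKM with DAPA. No DAPA library reached the lowest vehicle library, and Kcne4 fell from 6.61 ± 0.212 to 5.13 ± 0.58 FPKM (n = 4), 1.29-fold lower (log2 difference -0.32, SE 0.0665, limma adjusted p = 0.0051).

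The transient outward current repolarises the mouse ventricle early and needs Kv4 pores with the subunit KChIP2. Kcnip2 (80906), which encodes KChIP2, measured 34.2, 32.6, 34.7 and 35.3 FPKM with vehicle and 30, 32, 30.3 and 31.9 FPKM with DAPA. The groups came close without overlapping. Kcnip2 fell from 34.2 ± 1.18 to 31.0 ± 1.03 FPKM (n = 4), 1.1-fold lower (log2 difference -0.13, SE 0.0381, limma adjusted p = 0.027), a call lost without vehicle library 1, 3 or 4 or DAPA library 1 or 3 (up to 0.076). Klf15, which in the mouse heart drives Kcnip2 expression, fell from 6.54 ± 0.377 to 4.21 ± 0.118 FPKM (limma adjusted p = 1.4e-05, n = 4). Kv4 pores lay under the limit for testing in FPKM. Kcnd2 (Kv4.2) read 0.148, 0.108, 0.127 and 0.163 FPKM with vehicle and 0.139, 0.134, 0.106 and 0.133 FPKM with DAPA, with overlapping groups. Kcnd3 (Kv4.3) read 0.78, 0.951, 0.802 and 1.08 FPKM with vehicle and 0.903, 1.02, 0.908 and 0.807 FPKM with DAPA, also overlapping. In voom on recovered reads the log2 differences were -0.07 for Kcnd2 (95% interval -0.30 to 0.15, adjusted p = 0.71) and 0.02 for Kcnd3 (95% interval -0.22 to 0.26, adjusted p = 0.94).

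Low FPKM did not mean few reads for Kcnd2. It held 1395 vehicle and 1315 DAPA reads, because its FPKM had been divided by a length of 98276 bases, recovered from the steps between values, where the longest GENCODE transcript has 5152 bases, 19.1 times less. By the longest transcript its level would be 2.6 FPKM with vehicle and 2.45 with DAPA, if all of its reads lay on that transcript. All GENCODE exons of Kcnd2 together cover 5152 bases, so most of the length used lies outside them. Where its reads fell was not tested. Kcna4 (Kv1.4), pore of the slow transient outward current, was divided by 33502 bases against 4792, and Kcnj12 by 8638 against 2463, which would place Kcnj12 at 10.6 and 12.3 FPKM. Kcnj3, divided by 11170 bases against 5215, would stand at 6.33 and 16 FPKM. The same condition on the reads holds for Kcnj12, whose GENCODE exons cover 2750 bases, and for Kcnj3, whose exons cover 5215. The median ratio over the 88 Kcn genes with both lengths was 1.16, and 20 had a ratio over 2. A length is the same in every library, so it moves the level of a gene and its place against the 1 FPKM limit, not its ratio between groups.

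**Figure D4:**
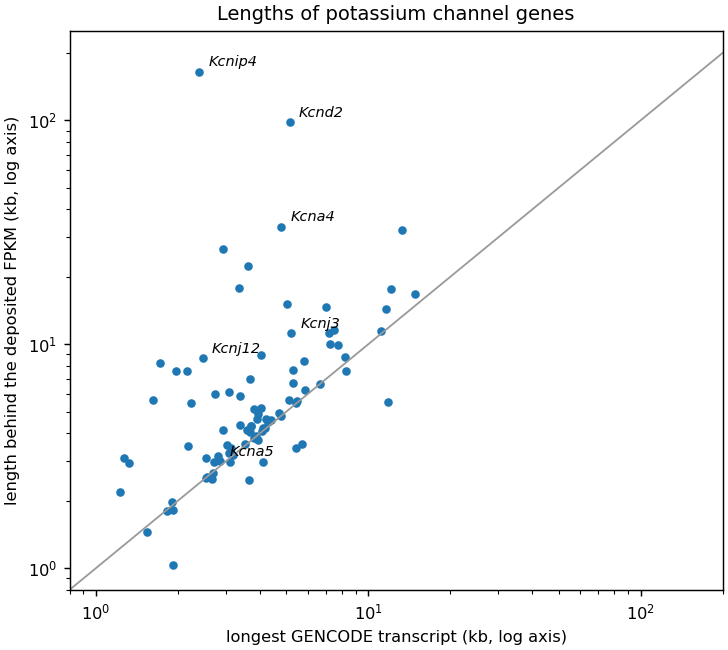
Each of 88 potassium channel genes is placed by the length of its longest GENCODE transcript (horizontal, kilobases, log axis) and by the length recovered from the deposited FPKM (vertical, kilobases, log axis); the line marks equal lengths. Most genes lie near the line, while Kcnip4, Kcnd2 and Kcna4 lie far above it.

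Further voltage-gated subunits did not pass. Kcng2, a silent subunit that works only with Kv2 pores, was the second most abundant of the family at 45.3 ± 1.3 and 46.7 ± 2.41 FPKM (n = 4, log2 difference 0.04, 95% interval -0.04 to 0.13, limma adjusted p = 0.5). The beta subunit Kcnab2 measured 1.25 ± 0.191 and 1.05 ± 0.0905 FPKM (n = 4, limma adjusted p = 0.27).

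No tested two-pore, calcium-activated or sodium-activated channel passed limma on FPKM. Kcnk3, encoding the acid-sensitive background channel TASK-1, was the most abundant gene of the family, at 52, 50.8, 52.6 and 50.7 FPKM with vehicle and 51, 51.5, 51.2 and 53.5 FPKM with DAPA. The groups overlapped almost fully, and the log2 difference was 0.01, with a 95% interval of -0.06 to 0.08 (limma adjusted p = 0.9). Kcnk2, the stretch-activated TREK-1, read 1.12, 0.886, 1.13 and 1.16 FPKM with vehicle and 1.22, 1.47, 1.22 and 1.12 FPKM with DAPA (log2 difference 0.12, 95% interval -0.04 to 0.29, limma adjusted p = 0.3). Kcnk6 (TWIK-2) measured 3.04 ± 0.107 and 3.21 ± 0.284 FPKM (n = 4, limma adjusted p = 0.58). Small-conductance channels answer to calcium through calmodulin. Their member Kcnn2 (SK2) read 2.1, 1.95, 1.82 and 1.96 FPKM with vehicle and 1.92, 1.66, 1.79 and 2.06 FPKM with DAPA (log2 difference -0.05, 95% interval -0.20 to 0.09, limma adjusted p = 0.65). Kcnn1 (SK1) had a limma adjusted p of 1, Kcnn4 (the intermediate-conductance channel) of 0.63 and the sodium-activated Kcnt2 of 0.44. Kcnma1, pore of the large-conductance channel of smooth muscle, read 0.328, 0.422, 0.24 and 0.257 FPKM with vehicle and 0.31, 0.293, 0.398 and 0.248 FPKM with DAPA. Its groups overlapped on 577 and 574 reads (voom log2 difference 0.01, 95% interval -0.35 to 0.36, adjusted p = 0.98).

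Several weakly expressed channels were higher in every DAPA library. Of the 27 genes with a mean of 0.1 to under 1 FPKM, 8 (29.6%) had all DAPA libraries above all vehicle libraries and 1 (3.7%) had them below, where over all 2818 genes of that level 7.13% were above and 4.19% below. Kcna3 reached that level through its DAPA libraries alone. The 8 were Kcna1, Kcna2, Kcna3, Kcna6, Kcne3, Kcnk5, Kcnk7 and Kcnn3, and the 1 below was Kcnv2, a silent subunit, with 536 vehicle and 412 DAPA reads. The other 18 had overlapping groups, among them Kcnmb1, the smooth muscle subunit of the large-conductance channel, with 392 and 399 reads, and Kcnd1 (Kv4.1) with 236 and 258 reads. Of the 43 genes under 0.1 FPKM in both groups, Kcna4, Kcnh7 and Kcnj4 had groups that did not overlap in FPKM, each higher with DAPA. These were 3 of the 37 above 0 (8.11%), with 0 lower, where 1.58% of all 3042 genes of that level were higher in this way and 0.723% lower. In voom on recovered reads, 10 of 54 Kcn genes were higher (18.5%) and 5 lower (9.26%), against 10.9% and 8.97% of 13887 genes. The 9 calls of the FPKM test were all among these, and the 6 others were Kcnj12, Kcna2, Kcnk5, Kcnn3, Kcnh7 and, lower, Kcnq5.

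Of the weak Kv1 pores, Kcna2 passed voom but not limma, and Kcna3 passed limma where it was kept in the test. Kcna1, Kcna4 and Kcna6 did not pass. Kcna1 (Kv1.1), a channel of axons, had 58, 54, 32 and 73 reads with vehicle and 96, 77, 74 and 87 with DAPA (voom log2 difference 0.66, adjusted p = 0.053). Kcna2 (Kv1.2) had 67, 78, 51 and 74 reads with vehicle and 97, 90, 137 and 90 with DAPA (voom log2 difference 0.60, adjusted p = 0.048). In the limma alternatives that kept it, Kcna2 did not pass (adjusted p up to 0.22). Both Kcna1 and Kcna2 showed DAPA libraries all above vehicle libraries by modest margins. Kcna6 (Kv1.6) had 157 reads in all with vehicle and 233 with DAPA (voom adjusted p = 0.17). Kcna4 (Kv1.4) lay under 0.1 FPKM and had 62, 33, 52 and 59 reads with vehicle and 78, 99, 71 and 69 with DAPA (voom adjusted p = 0.064). Its groups did not overlap. Kcna3, Kv1.3, the Kv channel of T lymphocytes, had 2, 0, 1 and 1 reads with vehicle and 13, 9, 19 and 14 with DAPA. That is a read ratio of 13.8 (95% interval 5.08 to 52.3, exact binomial, counting error only). The limma adjusted p was 0.0014 to 0.0042 in the 3 alternatives that kept so weak a gene. Where these had a filter of 0.1 FPKM, Kcna3 entered through its DAPA libraries alone, so that the test could only find it higher. In RefSeq, Kcna5, Kcna1 and Kcna6 follow each other on chromosome 6 with 0 protein-coding genes between them.

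**Figure D5:**
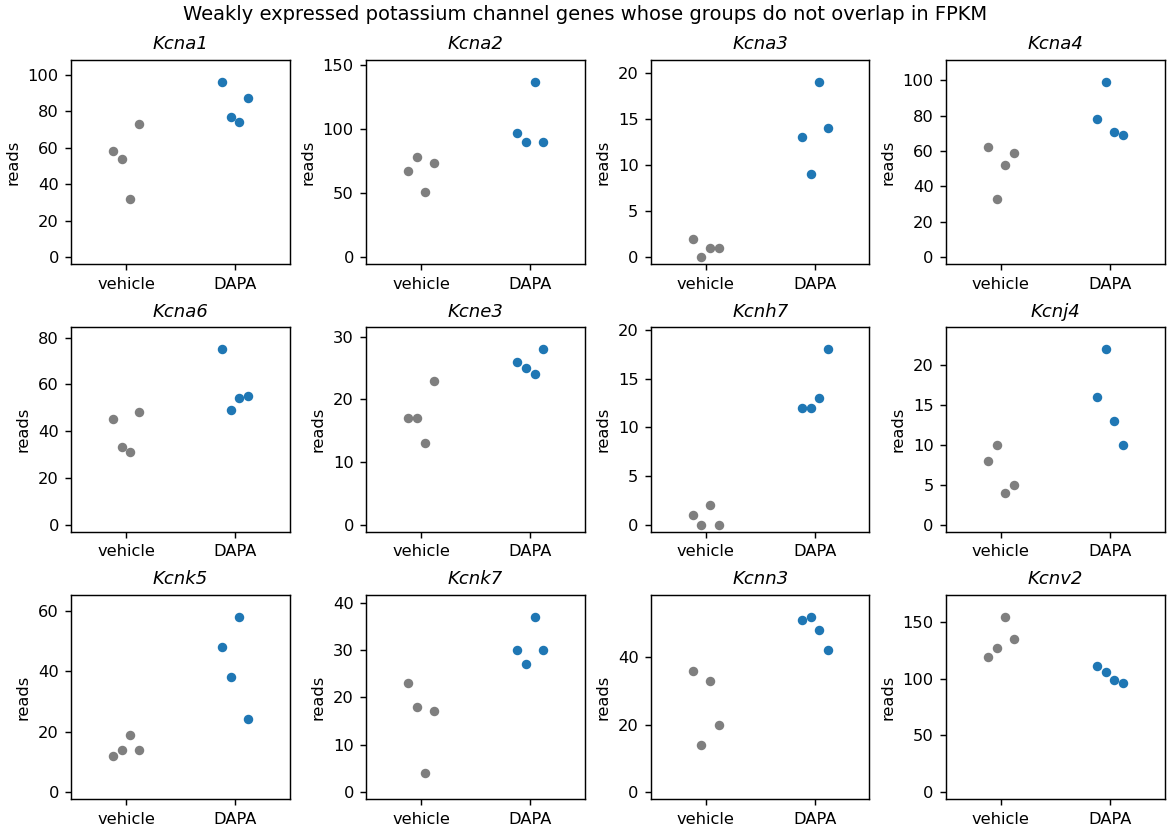
Reads recovered per library are shown for the 12 potassium channel genes under the 1 FPKM limit whose groups did not overlap in FPKM, with 1 point per library and a separate linear axis for each gene. Kcnv2 alone is lower with DAPA, and Kcna3 and Kcnh7 go from at most 2 reads in a vehicle library to at least 9 in a DAPA library.

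Beyond the Kv1 group, Kcnk5, the alkaline-activated TASK-2, had 12, 14, 19 and 14 reads with vehicle and 48, 38, 58 and 24 with DAPA. Every DAPA library was above every vehicle library, and the gene passed voom (log2 difference 1.43, SE 0.404, adjusted p = 0.0082). Kcnn3 (SK3) had 36, 14, 33 and 20 reads with vehicle and 51, 52, 48 and 42 with DAPA (voom log2 difference 1.00, adjusted p = 0.032). Kcnk7, a two-pore gene with no known current, went from 62 to 124 reads in all (voom adjusted p = 0.05, above the threshold before rounding). Kcne3, a subunit of Kv7 channels, went from 70 to 103 (voom adjusted p = 0.35). Each passed 1 of 4 alternatives that kept it, with a limma adjusted p of 0.036 for Kcnk7 and 0.043 for Kcne3. Kcnh7, the neuronal ERG3 pore, was named after its values were seen, since it lay under 0.1 FPKM. It had 1, 0, 2 and 0 reads with vehicle and 12, 12, 13 and 18 with DAPA, a read ratio of 18.3 (95% interval 5.96 to 91.6, counting error only; voom adjusted p = 2.8e-05). It entered the voom test through its DAPA libraries alone, so that the test could only find it higher. Kcnq5 (Kv7.5), also named after its values were seen, had 12, 18, 13 and 8 reads with vehicle and 1, 10, 1 and 2 with DAPA, so the groups overlapped (voom adjusted p = 0.019).

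Markers of cells that use these weak channels moved in part with them. Of 14 markers of Schwann cells and neurons 8 were tested, 5 rose, 3 of them tested through DAPA libraries alone, and 1 fell, with sums of 12.0 to 16.4 FPKM in vehicle and 17 to 18 in DAPA libraries. Among 11 T and B lymphocyte markers 2 were tested, none rose and 1 fell, with sums of 6.23 to 9.20 and 4.65 to 5.98 FPKM, lower in every DAPA library, where Kcna3 was higher. No lymphocyte marker was at 0 in all libraries. Of 12 macrophage markers 4 rose and 2 fell, with overlapping sums of 837 to 1023 and 910 to 993 FPKM. The part of nerve cell RNA in the values of Kcna1, Kcna2 and Kcnh7 was not tested.

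The authors' deposited table gave a q-value for 70 of the 94 genes. There, 10 Kcn genes (14.3%) were higher in the authors' deposited table and 4 (5.71%) lower, at q below 0.05, against 8.76% and 8.65% of 15527 genes. All 9 genes that passed limma were among these 14 of the authors' deposited table, and the other 5 were Kcna2, Kcna3, Kcnh7, Kcnk5 and Kcnn3.

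Partner proteins without a Kcn symbol were read beside the channels. Of 18 listed partner subunits 10 were tested. At an adjusted p below 0.05 in limma 1 rose (Abcc8) and none fell, with a median log2 difference of -0.05. Over all 11496 tested genes, 9.62% rose and 8.75% fell. Regulators of channel transcription, traffic and G protein control numbered 28, of which 26 were tested, 8 rose and 3 fell, with a median of 0.10. The risers were Chrm2, Rgs6 and the transcription factors Irx4, Tbx5, Tbx20, Etv1, Nkx2-5 and Gata4. Tbx5, which is also on the atrial list, rose from 2.15 ± 0.066 to 4.82 ± 0.224 FPKM (limma adjusted p = 1.8e-07, n = 4). Irx4, a ventricular factor, rose from 7.42 ± 0.348 to 9.55 ± 0.63 FPKM (limma adjusted p = 0.0011, n = 4). Irx5, which represses Kcnd2 in the mouse ventricle, measured 4.78 ± 0.792 and 5.90 ± 0.469 FPKM and did not pass (limma adjusted p = 0.058, n = 4). Besides Klf15, those that fell included Sgk1, a kinase that raises the surface level of several channels, from 40.4 ± 0.606 to 28.3 ± 1.37 FPKM (limma adjusted p = 1.3e-06, n = 4). The call of Etv1 did not hold with every library left out in turn (limma adjusted p up to 0.095).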

How the data were processed

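RNA of mouse heart was made into 8 stranded mRNA libraries and sequenced as paired reads of 150 bases, per the labels' protocols. HISAT2, SAMtools, StringTie, Cufflinks, HTSeq and DESeq are listed, without versions or roles, in the submitters' processing notes, which name the human build GRCh38 for these mouse genes, so no coordinates are given for expression values. The authors deposited FPKM per gene and library, with no pooling, beside their own ratio (fold) of the groups and their q-value; the unit was taken from the table and its values. No source used here states if counting used strand, which leaves genes that overlap others uncertain.

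Each gene's FPKM values were whole multiples of a step, and whole reads came back for all 17356 genes above 0 (tolerance 1e-07). The library totals were not given. They were inferred from the FPKM values, as whole numbers that fitted all 8 libraries together. The length behind each gene's FPKM was taken as the smallest that gave whole reads in every library. The table held 99.9% of the totals, and 1 read on 1 kilobase was worth 0.0373 to 0.0400 FPKM. Intervals of read ratios cover counting error only, while those of log2 differences come from limma or voom and rest on the spread between libraries.

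Groups were compared in R 4.3.3 with the trend method of limma 3.58.1, two-sided, on values of log2(FPKM + 1) with only the group as a term, for genes with a mean of 1 FPKM or more in at least 1 group, with Benjamini-Hochberg adjustment over 11496 genes and a threshold of 0.05. Differences on that scale understate those of weak genes. Alternatives were other pseudocounts, filters and scalings, a replicate block, no variance trend, limma voom on recovered reads (10 or more in at least 4 libraries) and leaving out each library. The fit was tested on simulated data.

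Members, gene lists and tests were chosen with earlier results of these data known. Values in every library are given for genes that passed and for listed channels of cardiac currents. Weaker genes are named where groups did not overlap and the higher mean was 0.1 FPKM or more. Samples were grouped by the treatment label, and no column was left without a sample. Sequences come from RefSeq (GRCm38.p6) and transcript lengths from GENCODE; no protein sequences were used here. Values of some single genes are not reported here, although the counts include them.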

Additional observations from a re-analysis of the deposited data

Results flagged for a closer look

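In 58 groups of 4 libraries, a single library was compared with the other 3 by the ratio of its gap to the range of the group (Dixon's test at 95%), and chance picks out about 1 in 20 groups. DAPA library 1 stood above the others for Kcnj8, at 33.4 FPKM. Vehicle library 2 stood below the others for Kcnk2, at 0.886 FPKM. Vehicle library 3 stood below the others for Kcnq1, at 11.2 FPKM.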

How the results depend on the processing

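Over 18 alternatives, 6 of the 9 genes that passed (Kcnj3, Kcna5, Kcnj5, Kcnj2, Kcne4 and Kcnh2) kept their direction and their call in every one, and the other 3 (Kcnj11, Kcnip2 and Kcnj8) kept their direction and lost the call in some. The count of higher genes was 5, and 4 with no variance trend. It became 8 with no filter, 8 with a filter of 0.1 FPKM and 7 when that filter had a pseudocount of 0.1. In limma voom on recovered reads it was 10. The settings with 7 or more also test genes left out by the filter of 1 FPKM. Calls of genes already tested moved too. Kcnj11 lost its call with no filter (limma adjusted p = 0.052), and Kcnj12 gained one in voom (adjusted p = 0.039). With a library left out the count of higher genes was 4 to 5. The count of lower genes was 4, and 2 to 4 with a library left out, with 2 without vehicle library 1 and without DAPA library 3. The log2 difference of Kcnk3 ranged from -0.007834 to 0.01737 with a library left out, and was -0.000128 without vehicle library 4, so its sign is not determined. The titles number the libraries in each group, but same-numbered libraries did not deviate together (correlations of -0.0551, -0.0386, 0.0138 and -0.0092 over 11496 genes, none highest with its own number). With that number as a replicate block, 5 Kcn genes were higher and 3 lower, of 1764 called in all against 2112, and the call of Kcnip2 was lost. Of 288 gene and setting pairs for 16 genes, 262 kept direction and side of the threshold, 19 lost a call, 5 gained one and 2 changed sign. Quantile scaling and a shift to equal medians moved the median of all genes by less than 0.01. Depth limits the genes under 1 FPKM: for Kcna3 and Kcnh7 the vehicle group held 4 and 3 reads.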
